A study of Arabidopsis thaliana with 12 samples.

Results

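IMA1 (AT1G47400) encodes a small Fe signalling peptide of Arabidopsis thaliana, and its transcript was read by 1 Affymetrix probe set, 261684_at, of the 22746 tested. The arrays named 13286 loci in all. That probe set was chosen by its identifier, and the platform annotation pairs it with AT1G47400 alone. IMA1 was followed across 12 arrays, 2 biological replicates in each of 6 groups. The groups were irt1-2 (pam42) shoots with Fe, Col-0 wild-type shoots without Fe, wild-type shoots with Fe, and the same 3 kinds of root. Seedlings spent 10 days on a control medium and then 5 days on EDTA-washed agar, and were 15 days old when harvested 3 h after dawn (ZT 3). The agar of every irt1 and Fe-supplied group held 10 µM Fe-HBED, a chelated Fe source, and no Fe was added for the Fe-deficient groups. The mutant carries a lesion in IRT1, the main transporter of ferrous Fe into roots, and was represented by 1 allele and was not grown without Fe. The probe set of IRT1 is not named in the annotation used, so the mutant's own target was not analysed here.

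IMA peptides, also called FEP peptides, share a conserved C-terminal motif and promote Fe uptake. In Arabidopsis they bind the hemerythrin E3 ligase BTS and thereby spare the subgroup IVc bHLH transcription factors from degradation. Those factors in turn activate the subgroup Ib bHLH genes and other genes of the Fe deficiency response. IMA1 is itself transcribed under Fe deficiency, in the vascular tissue of both leaves and roots.

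Values are log2 expression levels from RMA, rounded to 1 decimal, and the lowest value on any array was 1.9 or 2.0. Across probe sets, Pearson's r between replicate arrays was 0.991 to 0.996. The organ labels were borne out by RCA, for Rubisco activase, at 12.55 to 12.65 in the 3 shoot groups and 6.55 to 7.5 in the 3 root groups. EXPA7, a root hair expansin gene, was at 4.2 to 4.4 in shoots and 8.05 to 8.25 in roots. Replicate 1 of irt1 shoots stood apart in the GAPDH 3′ minus 5′ difference, at 1.6 on the log2 scale against 0.7 to 1.0 on the other 11 arrays. For actin the same difference was 3.7 on that array and 2.7 to 3.6 on the others.

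IMA1 was high in irt1 and in Fe-deficient wild type, and near the lower end of the scale in Fe-supplied wild type. In shoots its log2 level was 10.0 and 9.6 on the irt1 arrays, 10.4 and 10.5 on the Fe-deficient arrays, and 3.6 and 3.3 on the Fe-supplied arrays. In roots it was 6.8 and 6.6 in irt1, 8.6 and 8.5 without Fe, and 2.8 and 3.5 in Fe-supplied wild type. Within each organ the 3 groups did not overlap. The widest replicate gap was that of Fe-supplied roots, where the SD of 0.49 exceeded that of 99.4% of all probe sets in this group. In bulk tissue, more cells that express IMA1 and more transcript per cell cannot be told apart.

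**Figure D1:**
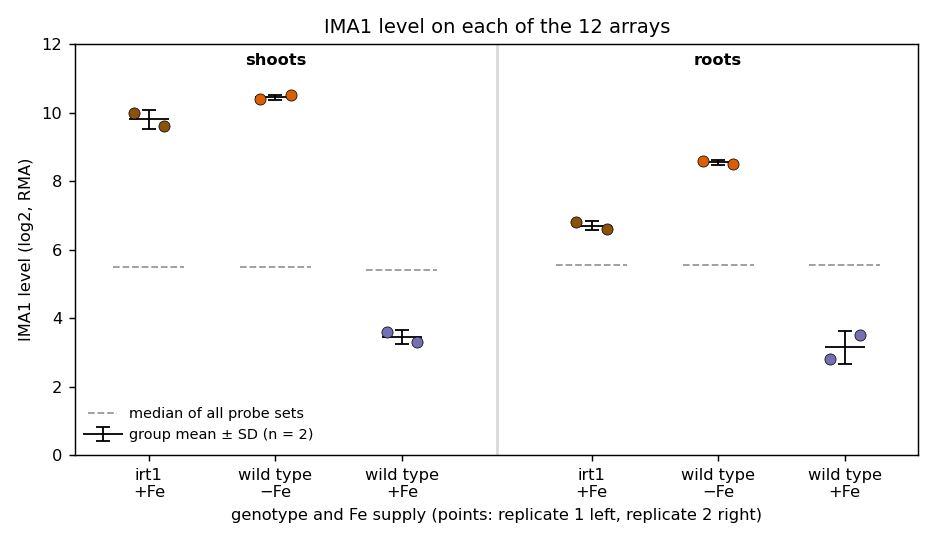
IMA1 level (log2, RMA) on each array, by genotype and Fe supply, with shoots on the left and roots on the right; points are arrays, black marks the mean ± SD (n = 2) and dashed lines the median of all probe sets. The irt1 and Fe-deficient arrays lie between 6.6 and 10.5, above the median, and the Fe-supplied wild-type arrays between 2.8 and 3.6, below it.

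Ranked by group mean, IMA1 stood at place 765 in irt1 shoots and 434 in Fe-deficient shoots, against 17588 in Fe-supplied shoots (1 is the highest of 22746). In roots it stood at 7269 in irt1 and 2128 without Fe, against 18557.5 in Fe-supplied wild type. Expressed as a share, 3.3% of probe sets had a higher level than IMA1 in irt1 shoots and 1.84% in Fe-deficient shoots, against 76.7% in Fe-supplied shoots. The corresponding shares in roots were 31.5% in irt1 and 9.14% without Fe, against 81.0% in Fe-supplied wild type. Signals of different probe sets also depend on probe affinity, so these ranks order hybridisation signals and not transcript numbers. At the low levels of Fe-supplied wild type, array background compresses differences, so the fold changes that follow may be understated.

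From high to low the group means were 10.45 ± 0.07 in Fe-deficient shoots, 9.80 ± 0.28 in irt1 shoots, 8.55 ± 0.07 in Fe-deficient roots, 6.70 ± 0.14 in irt1 roots, 3.45 ± 0.21 in Fe-supplied shoots and 3.15 ± 0.49 in Fe-supplied roots (SD, n = 2). All adjusted p-values here come from limma over the 22746 probe sets, called under 0.05. Among neighbours in this order, irt1 shoots were above Fe-deficient roots by a log2 of 1.25 (SE 0.21; limma adjusted p = 0.000275; 53.8% of probe sets called). Likewise irt1 roots were above Fe-supplied shoots by 3.25 (SE 0.21; limma adjusted p = 5.85e-08; 54.4% called). The pair at the top and the pair at the bottom did not pass the threshold. These 2 cross-organ comparisons were chosen after the levels were seen.

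The irt1 mutant and wild type on the same Fe-containing medium were compared to see what disruption of IRT1 changes. IMA1 was higher in irt1 in both organs. In shoots the log2 fold change was 6.35 (95% interval 5.89 to 6.81), an 81.6-fold rise (limma adjusted p = 1.63e-08), in a comparison that called 3.57% of probe sets. Differences between single irt1 and wild-type shoot arrays ran from 6.0 to 6.7. In roots it was 3.55 (95% interval 3.09 to 4.01), or 11.7-fold (limma adjusted p = 5.6e-06), with 3.4% of probe sets called. Single root arrays differed by 3.1 to 4.0. Without irt1 shoot replicate 1, the array with the high GAPDH ratio, the shoot log2 fold change was 6.15.

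In wild type, IMA1 rose in both organs after 5 days without added Fe. The log2 fold change in shoots was 7.0 (95% interval 6.54 to 7.46), a 128-fold rise (limma adjusted p = 6.87e-09), where 4.86% of probe sets were called. Root levels rose by 5.40 (95% interval 4.94 to 5.86), or 42.2-fold (limma adjusted p = 7.09e-08), with 5.19% called. Both responses were measured against the same Fe-supplied arrays as the irt1 responses. In a limma model of only the 4 arrays compared, none of these 4 responses passed the threshold (adjusted p 0.063 to 0.119). Over the 6 arrays of the same organ all 4 passed (limma adjusted p 0.000939 and 0.0214 for irt1 in shoots and roots, and 0.000673 and 0.00691 for Fe deficiency).

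In both shoot comparisons IMA1 had the highest log2 fold change, by a margin smaller than its SE of 0.21, so first place was not separated from second. An unnamed probe set, 251677_at, came next with 6.30 ± 0.19 (SE) in irt1 shoots and 6.85 ± 0.19 in Fe-deficient shoots. The named gene just below IMA1 was bHLH101, a subgroup Ib bHLH factor gene, in irt1 shoots (5.90 ± 0.20, SE) and the cupin family gene AT4G36700 in Fe-deficient shoots (6.35 ± 0.14). In roots IMA1 held place 4 in the irt1 comparison, below 2 unnamed probe sets and S8H, the scopoletin hydroxylase gene of coumarin synthesis (3.80 ± 0.25). It shared places 3 and 4 with S8H under Fe deficiency, both at 5.40. bHLH101 followed as the named gene just below, at 3.35 ± 0.20 in irt1 roots and 4.60 ± 0.20 in Fe-deficient roots. Ranked by the size of the moderated t statistic, IMA1 stood at 5 and 9 for irt1 in shoots and roots, and at 4 and 7 for Fe deficiency.

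**Figure D2:**
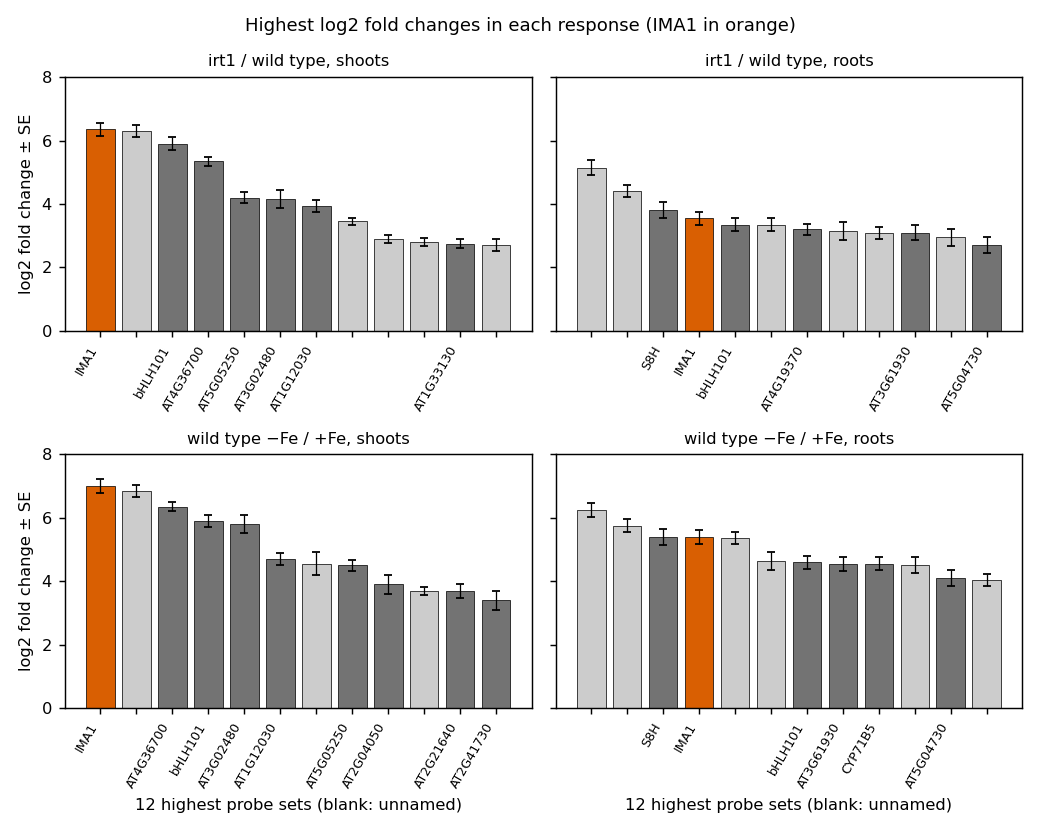
Log2 fold change ± SE (vertical axis) of the 12 highest probe sets in each response, with IMA1 in orange, other named genes in dark grey and unnamed probe sets in light grey. IMA1 is the highest bar in both shoot panels, at 6.35 and 7.0, and the fourth bar in both root panels, at 3.55 and 5.40.

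Whether the mutant with Fe reached the IMA1 level of Fe-starved wild type was tested as the difference between these groups, with the spread taken from all 12 arrays. In roots irt1 stood lower by a log2 difference of -1.85 (95% interval -2.31 to -1.39; limma adjusted p = 0.00141), which is 27.7% of the Fe-deficient level. This comparison called 1.83% of probe sets, and IMA1 ranked 13.5 from the bottom by log2 difference, a tied rank. In shoots the difference was -0.65 (95% interval -1.11 to -0.19), or 63.7% of the Fe-deficient level, and it did not pass the threshold (limma adjusted p = 0.303, unadjusted p = 0.00977). Only 0.409% of probe sets were called there. The 2 irt1 shoot arrays both lay below both Fe-deficient arrays, but with 2 arrays a group this order alone does not show a difference. The difference was -0.85 without irt1 shoot replicate 1, the array with the high GAPDH ratio, and -0.45 without replicate 2. The interval covers 46.3% to 87.6% of the Fe-deficient level, so similar levels in the 2 shoot groups were not shown. The root call was lost in a model of the 6 root arrays alone (limma adjusted p = 0.0986) and in one of the 4 arrays compared (0.218).

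Both responses were larger in shoots than in roots. The irt1 response differed by a log2 of 2.80 ± 0.30 (SE; limma adjusted p = 0.000588), where 2.0% of probe sets were called and 5 of 22746 had a larger shoot-minus-root difference. The Fe deficiency response differed by 1.60 ± 0.30 (limma adjusted p = 0.0151), with 3.06% called and 48 probe sets higher. This second difference fell short of the threshold when Fe-deficient root replicate 2, Fe-supplied shoot replicate 2 or either Fe-deficient shoot array was left out (limma adjusted p 0.0564 to 0.086), and in a model of only the 4 groups compared (0.0534). The irt1 minus Fe-deficient difference was 1.2 ± 0.30 higher in shoots than in roots, which did not pass (limma adjusted p = 0.168; 0.189% called; chosen after the levels were seen).

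The difference between organs passed the threshold in irt1 and in Fe-deficient wild type, and not in Fe-supplied wild type. Shoots exceeded roots by 3.10 in irt1 (95% interval 2.64 to 3.56; limma adjusted p = 9.17e-08; 52.5% called) and by 1.90 without Fe (1.44 to 2.36; limma adjusted p = 8.27e-06; 51.1% called). In Fe-supplied wild type the difference was 0.30 (-0.16 to 0.76; limma adjusted p = 0.253; 54.8% called). That last value rests on the spread of the Fe-supplied roots. It was -0.05 without their replicate 1 and 0.65 without their replicate 2, where it passed the threshold (limma adjusted p = 0.0186). The changes of this difference with genotype and with Fe supply are the 2.80 and 1.60 tested above.

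**Figure D3:**
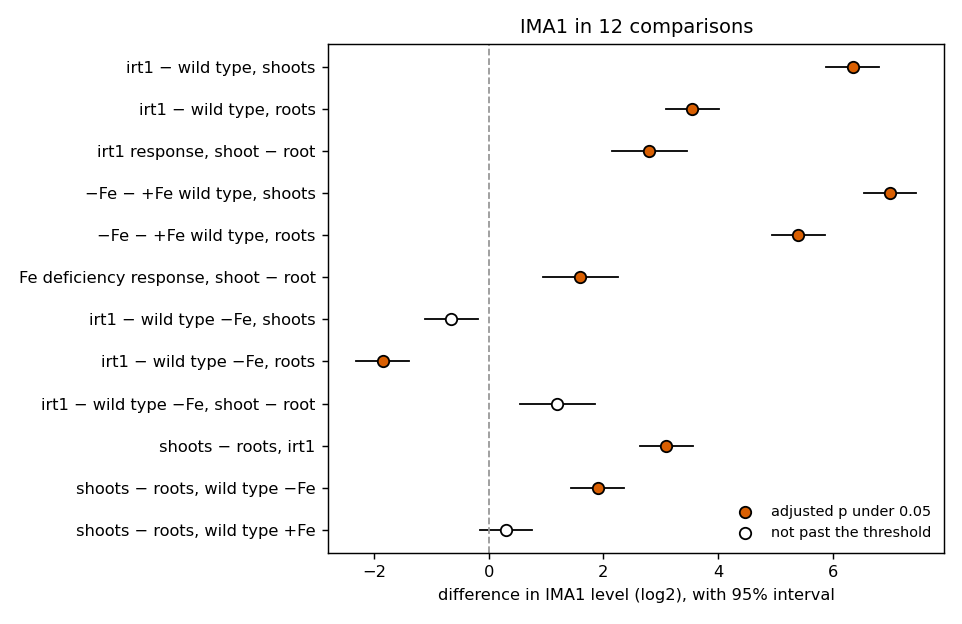
Differences in IMA1 level (horizontal axis, log2) in 12 comparisons, with 95% intervals from the 12-array model; filled points had an adjusted p under 0.05 and open points did not. The 4 responses lie between 3.55 and 7.0, and the open points are -0.65, 1.2 and 0.30.

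The genes whose profile most resembled that of IMA1 were ranked by Pearson's r over the 12 arrays, which mostly carries the group differences that all arrays share. Of 22745 other probe sets, 8 had an r above 0.95, 4 of them named. PYE, a bHLH regulator of Fe homeostasis, came first with 0.987, followed by bHLH101 with 0.981, AT3G56360 with 0.975 and AT5G05250 with 0.964. The next were AT3G17770 (0.935), AT1G01570 (0.92), AT1G74790 (0.914), the late embryogenesis abundant family gene AT3G02480 (0.907), CDI (0.907) and NET3A (0.902), a gene of the NETWORKED actin-binding family. The median r of all probe sets was -0.0143.

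A high r does not mean a like amplitude. PYE averaged 7.05 in irt1 shoots and 7.35 in Fe-deficient shoots, against 5.10 in Fe-supplied shoots, with a span of 2.25 over the 6 groups, where IMA1 spanned 7.30. bHLH101 averaged 9.0 in both irt1 and Fe-deficient shoots, against 3.10 in Fe-supplied shoots. By the distance between centred group means, bHLH101 was nearest to IMA1 (1.6, against a median of 7.09 over all probe sets). AT5G05250 (3.13), AT3G02480 (3.22), AT1G12030 (3.78) and AT4G36700 (4.49) followed. AT4G36700 had log2 fold changes of 5.35 in irt1 and 6.35 without Fe there, against 0.15 in irt1 roots and 0.45 in Fe-deficient roots, neither of them called. AT3G02480 was called in Fe-deficient roots (2.30; limma adjusted p = 0.000535) and stood at -0.05 in irt1 roots.

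**Figure D4:**
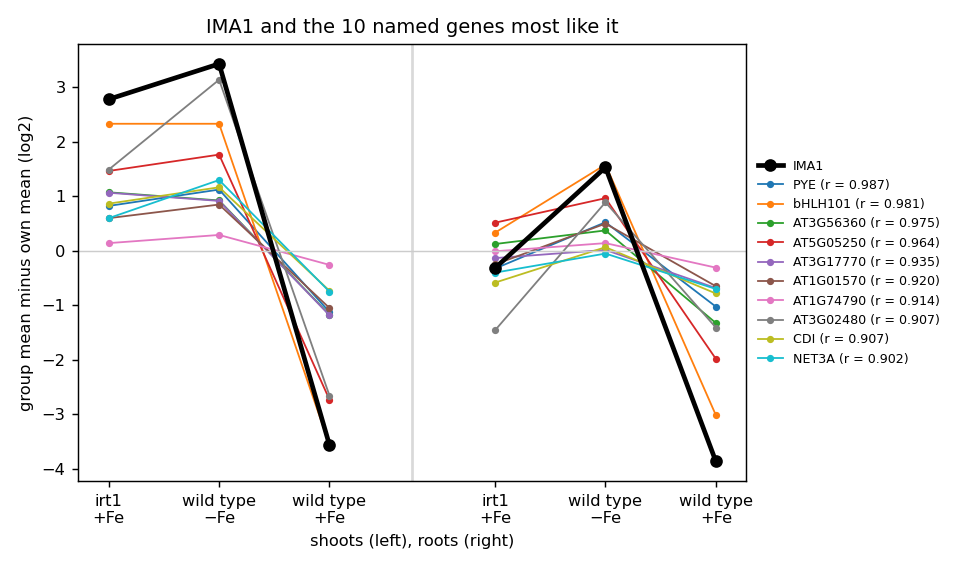
Group means minus each gene's own mean (vertical axis, log2) for IMA1 in black and the 10 named genes with the highest r, with shoots on the left and roots on the right. bHLH101 and AT3G02480 come nearest to the amplitude of IMA1, while PYE follows its shape at a smaller span of 2.25.

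At the opposite end, the lowest r among named genes belonged to AT5G12980 (-0.953), AT2G36885 (-0.949), SIR (-0.947), the copper amine oxidase family gene AT3G43670 (-0.936) and AT3G23170 (-0.931). SIR encodes sulfite reductase, an enzyme with sirohaem and an Fe-S cluster. Its log2 fold change was -0.95 in irt1 shoots (limma adjusted p = 0.00192) and -1.15 in Fe-deficient shoots (limma adjusted p = 0.000313). In roots it was -0.60 without Fe (limma adjusted p = 0.0177) and -0.30 in irt1, which was not called (limma adjusted p = 0.288). AT2G36885 fell in all 4 responses, by 3.75 in irt1 shoots, 0.80 in irt1 roots, 3.95 in Fe-deficient shoots and 1.75 in Fe-deficient roots (limma adjusted p 0.0306 or lower).

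Around IMA1, the Fe genes of 8 lists held 76 loci, of which 24 had a named probe set, IMA1 included. IMA1 was the only 1 of 8 IMA family loci with one. Its partner ligase BTS had none. Members are counted here by direction. Over all probe sets, the irt1 comparison called 1.93% up and 1.65% down in shoots, and 1.88% up and 1.52% down in roots. The Fe deficiency comparison called 2.67% up and 2.19% down in shoots, and 2.69% up and 2.5% down in roots. Calls upward made up 53.9% of calls in irt1 shoots, 55.3% in irt1 roots, 55.0% in Fe-deficient shoots and 51.8% in Fe-deficient roots. With array medians set equal these became 40.5%, 66.8%, 36.1% and 53.2%. The related hemerythrin ligases BTSL1 and BTSL2 both rose in irt1 roots (1.75 and 0.85) and in Fe-deficient roots (2.45 and 1.80). In shoots BTSL1 rose by 1.65 in irt1 and 2.25 without Fe, while BTSL2 stood at 0.50 and 0.30 and was not called. A second BTSL1 probe set gave 0.30 and 0.10 in shoots and was not called there, so the 2 probe sets disagree.

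The transcripts of the subgroup IVc factors and bHLH121, which act below IMA1, moved little. Arrays read transcripts, so degradation of these proteins was not measured. Of 5 measured members none was called in irt1 shoots or irt1 roots by limma (0 and 2 at an unadjusted p under 0.05). Over all probe sets these comparisons called 3.57% and 3.4%, so 0 calls among 5 genes is near that share. In Fe-deficient shoots and roots 1 and 3 of the 5 had an unadjusted limma p under 0.05. ILR3 stood at 0.45 in Fe-deficient roots and was narrowly not called (limma adjusted p = 0.0501). Only bHLH115 was called, rising by 0.55 in Fe-deficient shoots and 0.50 in Fe-deficient roots. Its root call was lost without any 1 of the 4 arrays (limma adjusted p 0.0603 to 0.202), and its shoot call when replicate 2 of the Fe-supplied or replicate 1 of the Fe-deficient shoots was dropped (0.103 to 0.16). The list medians were 0.10 and 0.00 for irt1 in shoots and roots and 0.05 and -0.05 for Fe deficiency, beside 0.00 over all probe sets in each.

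Further down the pathway, bHLH101 was the single measured subgroup Ib factor of 4, and it rose in all 4 responses. PYE was the 1 called member of 5 other measured Fe regulators. It rose by 1.95 in irt1 shoots, 0.70 in irt1 roots, 2.25 in Fe-deficient shoots and 1.55 in Fe-deficient roots. The uncalled bHLH18, bHLH19 and bHLH25 averaged 2.35 to 2.90 across the 6 groups, near the lowest array values, so their signal was hardly readable. NAI1, also uncalled, averaged 6.05 to 7.60. The PYE call in irt1 roots was lost without either wild-type array or irt1 replicate 1 (limma adjusted p 0.0743 to 0.112).

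Genes of root Fe uptake and mobilisation moved in roots and were not called in shoots, where the IMA1 response was the larger one. Of 7 measured members 5 rose in irt1 roots and 6 in Fe-deficient roots. In shoots 0 were called in either comparison by limma (0 at an unadjusted p under 0.05). Over all probe sets the irt1 and Fe deficiency comparisons in shoots called 3.57% and 4.86%, so 0 calls among 7 genes is near that share. The list medians were 0.00 and 1.35 for irt1 in shoots and roots and 0.05 and 3.00 for Fe deficiency. S8H and MTP8, a Mn transporter gene, stood at 0.05 and -0.15 in irt1 shoots, against 3.80 and 2.1 in irt1 roots. In Fe-deficient wild type they stood at -0.20 and 0.05 in shoots, against 5.40 and 3.80 in roots. ZIP9, a gene of the ZIP metal transporter family, rose by 1.35 in irt1 roots and 1.70 in Fe-deficient roots. F6H1, for a feruloyl-CoA hydroxylase of coumarin synthesis, rose by 1.55 and 2.40, and BGLU42, for a beta-glucosidase of coumarin release, by 1.25 and 3.00. COSY, for coumarin synthase, was not called (0.35 and 0.70). CYP71B5, a cytochrome P450 gene, was called in Fe-deficient roots (4.55) and not in irt1 roots (0.80; limma adjusted p = 0.0538). F6H1, ZIP9 and BTSL2 were not called in irt1 roots without any 1 of the 4 arrays (limma adjusted p 0.0725 to 0.215). Of 3 measured genes for Fe storage and Fe proteins, SAPX, for stromal ascorbate peroxidase, fell in shoots, by 3.1 in irt1 and 3.4 without Fe. VTL3 and VTL4 were not called, and the list of Fe distribution and chelation had 0 measured members of 18.

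**Figure D5:**
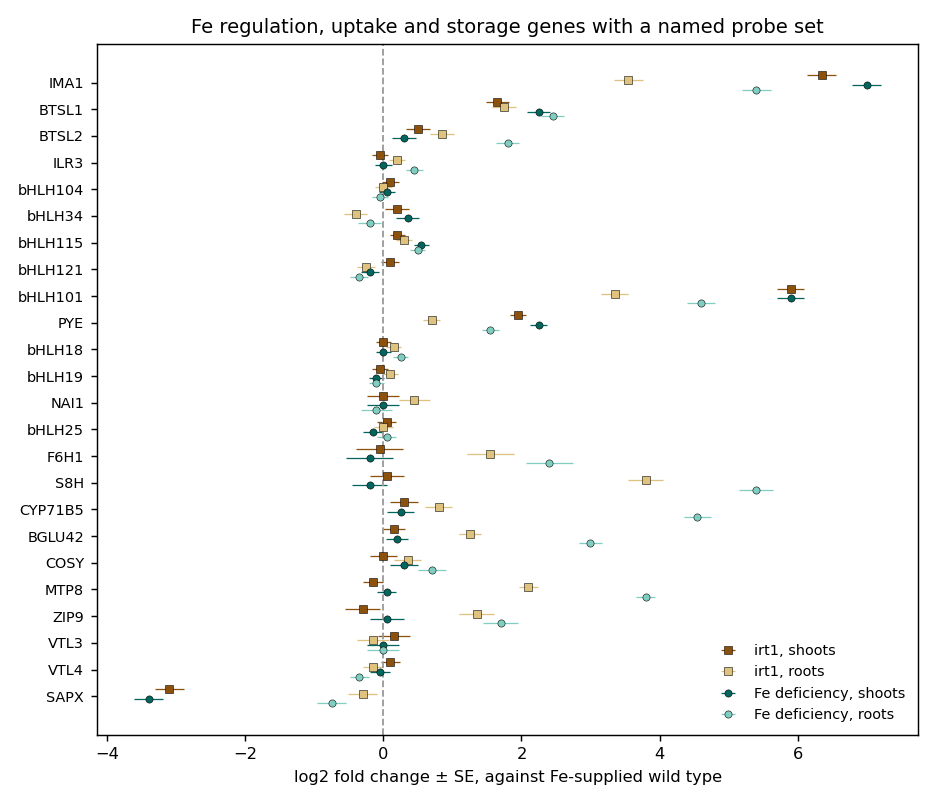
Log2 fold change ± SE (horizontal axis) against Fe-supplied wild type for the 24 Fe genes with a named probe set, by list, in irt1 and Fe-deficient shoots and roots. IMA1 and bHLH101 lie to the right in all 4 responses, while S8H and MTP8 do so in roots and not in shoots, COSY was called in none of the 4, and SAPX lies to the left in shoots.

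Some markers of other cell types also changed in roots, and the leaf markers that were called fell, though not all were called. Of 5 measured leaf photosynthesis markers of 13, 4 fell in irt1 roots and 4 in Fe-deficient roots. LHCB4.3 did not fall in roots, at 0.55 in irt1 and 0.00 without Fe, and was not called there. RCA was 1 of the 4 in irt1 roots (-0.55; limma adjusted p = 0.0444), and its call there was lost without any 1 of the 4 arrays (0.103 to 0.361). Their summed linear signal was 271 to 316 in irt1 roots and 209 to 238 in Fe-deficient roots, against 471 to 544 in Fe-supplied roots. In shoots LHCB4.3 and PSAN fell in both comparisons, while RCA, LHCB4.2 and PRK were not called (-0.20 to 0.05). The sum of the 5 in shoots was 16700 to 16800 in irt1 and 14800 to 15900 without Fe, against 19200 to 20800 with Fe. Of 2 measured root markers of 10, XTH26, a root hair cell wall gene, rose in irt1 and Fe-deficient roots (1.85 and 2.35) while EXPA7 was not called. Their summed signal was 316 to 398 in irt1 roots and 371 to 411 in Fe-deficient roots, against 256 to 310 in Fe-supplied roots. In shoots it was 26.4 to 27.0 in irt1 and 25.1 to 27.7 without Fe, against 28.3 to 31.8 with Fe. The part of these markers in the IMA1 result was not tested. Of 7 phloem and companion cell markers 0 had a named probe set.

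None of the measured chromosome 1 neighbours of IMA1 was called in the 4 responses by limma. Over all probe sets these responses called 3.4% to 5.19%, so 0 calls among 6 loci is near that share. Of the 16 loci nearest to it, 8 on each side in the RefSeq order, 6 had a named probe set, with log2 fold changes from -0.20 to 0.35 and a lowest limma adjusted p of 0.348 (0 of 6 had an unadjusted p under 0.05). The log2 fold changes of AT1G47380, the nearest measured neighbour on one side, were 0.20 and 0.00 for irt1 in shoots and roots, and 0.05 and 0.20 for Fe deficiency. Those of AT1G47410, the nearest on the other side, were 0.00 and 0.00 for irt1 and 0.20 and 0.20 for Fe deficiency. Directly beside IMA1 lies AT1G47395, the paralogous IMA2 gene, which had no named probe set. Probe sequences were not used here, so a share of the IMA1 signal that may come from this close copy was not tested.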

How the data were processed

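Biotin-labelled cRNA from roots and shoots was hybridised to 12 single-colour Affymetrix arrays. The deposited values are log2 expression values, and the submitters' processing notes name RMA as the method of the authors. Its version is not given in the sources used here, and the sources do not say whether both organs were normalised jointly. Values carry 1 decimal, so group differences move in steps of 0.05. Precision is limited by the array number.

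Of 22810 probe sets, 64 controls were left out. Gene names came from the platform annotation, with symbols updated through Entrez IDs to the RefSeq table of TAIR10.1. It gave 1 gene for 13513 probe sets, several for 503 and none for 8730, and 13436 matched a RefSeq locus. Where a locus had several probe sets, the one with the highest mean was used.

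All 12 arrays entered 1 limma 3.58.1 model in R 4.3.3, with a mean per group, 6 residual degrees of freedom and eBayes (no trend, not robust, two-sided), and Benjamini-Hochberg adjustment over 22746 probe sets. Calls had an adjusted p under 0.05 with no minimum fold. With 2 arrays a group, exact permutation p-values cannot be smaller than 0.333, so none was computed. Tested on simulated data (22746 probe sets, with the root Fe deficiency contrast), the model found 14% of changes of 0.5, 90% of 1 and 100% of 2 or 5 (log2). It also called 13 unchanged probe sets. Apart from the added changes, each simulated probe set had the same mean in all groups, with normal noise. The real groups differ widely by organ, so these rates need not hold for them. The labels call replicates biological and do not say whether they were separate cultures, so p-values measure the spread between these samples.

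IMA1, the gene lists and the comparisons were chosen with earlier results of these data known, and 3 comparisons were added later. The genes named were the 10 highest and 5 lowest r with IMA1, the 5 nearest by distance, rank neighbours in each response and called list members. Alternatives covered eBayes options, array weights, a replicate block, 2 further normalisations, a filter at a mean of 4, smaller models and each array left out.

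Replicate numbers were not shown to pair samples, since the correlation of replicate deviations ran from -0.0915 to 0.199 between groups.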

Additional observations from a re-analysis of the deposited data

Results flagged for a closer look

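Responses of IMA1 and of listed Fe genes are given here where the shoot and root responses differed by a test of the difference itself, an interaction contrast in limma. For IMA1 the shoot minus root difference was 2.80 in the irt1 response (limma adjusted p = 0.000588) and 1.60 in the Fe deficiency response (limma adjusted p = 0.0151).

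bHLH101 differed in the same direction, by 2.55 for irt1 and 1.3 for Fe deficiency, and PYE by 1.25 for irt1. For bHLH101 the Fe deficiency difference (limma adjusted p = 0.0336) lost its call whichever 1 of the 8 arrays was left out (limma adjusted p 0.0529 to 0.155).

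In the irt1 response the called genes of root Fe uptake and mobilisation went the other way. Their shoot minus root differences were -3.75 for S8H, -2.25 for MTP8, -1.65 for ZIP9 and -1.10 for BGLU42. F6H1 (-1.60), CYP71B5 (-0.50) and COSY (-0.35) were not called in this contrast. The BGLU42 call was lost without any 1 of 8 arrays (limma adjusted p 0.0578 to 0.136), and the ZIP9 call without 7 of 8. SAPX differed by -2.80, since it fell in shoots.

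In the Fe deficiency response the differences were -5.60 for S8H, -4.30 for CYP71B5, -3.75 for MTP8, -2.80 for BGLU42, -2.65 for SAPX, -2.60 for F6H1, -1.65 for ZIP9 and -1.50 for BTSL2. The F6H1 call was lost without any 1 of 5 arrays and the ZIP9 call without any 1 of 6 (limma adjusted p 0.0511 to 0.12).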

How the results depend on the processing

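The 4 IMA1 responses kept their direction under all 13 alternatives each and their call under all but 1. In a model of only the groups compared, the adjusted p was 0.119 and 0.0938 for irt1 in shoots and roots (6.35 and 3.55) and 0.063 and 0.0919 for Fe deficiency (7.0 and 5.40). The root difference of irt1 from Fe-deficient wild type (-1.85) was not called in that model (0.218) or over the 6 root arrays (0.0986), and the Fe deficiency difference between organs (1.60) not in a model of the groups compared. With 1 array left out that difference ran from 1.25 to 1.95, and the shoot minus root difference of Fe-supplied wild type from -0.05 to 0.65. The cause was not tested beyond the fewer arrays. The replicate block changed no IMA1 call: with it the adjusted p for irt1 against Fe-deficient shoots was 0.272 at -0.65.

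Among named probe sets alone, 2.06% and 1.08% had a higher level than IMA1 in irt1 and Fe-deficient shoots, and 26.5% and 6.61% in irt1 and Fe-deficient roots. By moderated t the rank became 5, 9, 4 and 7 in irt1 shoots, irt1 roots, Fe-deficient shoots and Fe-deficient roots. Of the 10 genes most like IMA1, 6 were among the 10 by Spearman's rho, 1 over root arrays and 2 over shoot arrays.

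Numbers of called probe sets moved more. For Fe deficiency 1106 in shoots and 1181 in roots became 121 and 535 over the arrays of the organ, and 3 and 0 in limma models of the groups compared (4053 in roots at an unadjusted p under 0.05). For irt1, 813 and 774 became 80 and 221 over the organ's arrays, 322 and 1481 with array weights and 0 and 0 over the groups compared (2995 and 4258 at an unadjusted p under 0.05). For irt1 against Fe-deficient wild type, 93 in shoots and 416 in roots became 0 and 22 over the organ's arrays, and 0 and 0 over the groups compared (1949 and 3014 at an unadjusted p under 0.05). Over the groups compared, the organ differences in response went to 175 against 455 for irt1 and to 449 against 697 for Fe deficiency. The added organ contrast of irt1 against Fe-deficient wild type had 43 calls, and 75 with the replicate block, 70 with trend and 16 over the groups compared.

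With 1 array left out, the percentages called beside each IMA1 result move with these numbers. For irt1 they ran from 299 (without irt1 shoot replicate 1) to 1105 in shoots and from 252 (without irt1 root replicate 1) to 359 in roots. For Fe deficiency they ran from 350 (without Fe-deficient shoot replicate 1) to 1236 in shoots and from 455 (without Fe-deficient root replicate 2) to 873 in roots. For irt1 against Fe-deficient wild type they ran from 22 (without Fe-deficient shoot replicate 1) to 57 in shoots and from 81 (without irt1 root replicate 2) to 163 in roots. The organ differences in response ran from 178 to 654 for irt1, from 256 to 686 for Fe deficiency and from 14 to 45 for the added contrast.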

Other observations

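Of the probe sets without a gene name, 248270_at followed IMA1 most closely, with an r of 0.994 over the 12 arrays. Its log2 fold changes were 3.45 and 1.95 for irt1 in shoots and roots, and 3.70 and 2.85 for Fe deficiency. It was followed by 247001_at (0.985) and 264751_at (0.974).

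Besides IMA1, 13 probe sets, 8 of them named, had their 6 group means in the same order, from Fe-deficient shoots down to Fe-supplied roots. One of the 13, the unnamed 245296_at, had group means spanning at least 5 on the log2 scale (5.5). AT1G12030 had the widest span among the 8 named ones (4.75), followed by AT1G33130 (3.35) and CDI (1.95). These orders were counted after the IMA1 levels had been seen. Gaps between neighbouring groups were not compared with the replicate gaps. Such gaps can be small, as the narrowest span over the 6 groups was 0.45 (AT1G78280).

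Over all 6 groups, 37 of 22745 other probe sets had a span of group means as wide as that of IMA1 (7.30) or wider, and most of the spread of such probe sets can lie between organs. For IMA1 the organ difference was 0.30 and not called by limma in Fe-supplied wild type, where both organs were low (3.45 and 3.15). It was called in irt1 (3.10) and in Fe-deficient wild type (1.90), so part of the IMA1 span also lies between organs.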
